A study of Mus musculus with 12 samples.

Results

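The chemokine ligand genes described here are those on the array with a single platform symbol that starts with Ccl, Cxcl or Cx3cl and a number, or is Xcl1 or Pf4, which gave 35 of the 19938 genes tested. Of these 35, 19 were CC ligands and 14 CXC ligands (Pf4 among them), and Cx3cl1 and Xcl1 made up the rest. Members were taken by name and not by a measured difference, though this group of genes was chosen with earlier results of these data known. Chemokines are small secreted or membrane-bound proteins that guide leukocytes through tissue by acting on receptors of the G protein-coupled class. They are named CC, CXC, CX3C or XC ligands after the spacing of conserved cysteines. In the small intestine, epithelial ligands such as Ccl25 and Ccl28 draw lymphocytes and antibody-secreting cells into the mucosa, interferon-induced ligands draw activated T cells, and other ligands draw neutrophils, monocytes or eosinophils when the tissue is injured.

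Whole jejunum of 12 mice was hybridised to 1 expression array per mouse, in 6 groups of 2 mice: mice with an inducible Fgfr1op KO and wild-type (WT) mice at day 6, at day 9 and at day 12 on a scale called post-tamoxifen. Fgfr1op, now Cep43, encodes a protein of the centrosome. By the protocol, mice received tamoxifen in corn oil into the abdomen at 75 mg per kg on 5 successive days. The protocol names no group that was spared the drug. No source used here gives the recombinase, its promoter, the deleted exons, the age or the strain, or says whether WT mice carried the recombinase. Recombinase and gene loss therefore cannot be told apart in a difference between KO and WT beyond what the genotype labels say. The drug is common to both genotypes if WT mice received it, which no label says outright. If they did not, it cannot be told apart either. The design text gives 2 mice per group, and the labels name no litter, cage or array batch.

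Values are log2 signals of a probe set, so a log2 difference of 1 is a doubling of signal. Array medians lay at 5.95 to 6.02, and the 2 arrays of a group correlated across genes at 0.992 to 0.997. Differences were tested with limma over all 19938 genes and called at a Benjamini-Hochberg adjusted p under 0.05, with n = 2 mice per group throughout. A gene is said to rise or fall in KO when it was called higher or lower than in WT of the same day. Changes within KO mice between days are named as such. Cep43 signals were 6.69 and 6.56 in KO mice, against 6.97 and 6.90 in WT mice, at day 6 and 6.97 and 6.74 in KO mice, against 6.83 and 7.04 in WT mice, at day 12. They were 6.60 and 6.63 in KO mice, against 6.96 and 7.05 in WT mice, at day 9 (log2 difference -0.39, SE 0.11, limma adjusted p = 0.0184), and Cep43 passed at neither day 6 (-0.31, adjusted p = 0.267) nor day 12 (-0.09, adjusted p = 0.638). Whether its probes lie in the deleted part is not known here. Defining markers of jejunal epithelium were well above the dim line described next, as with Fabp2 (mean 13.30) and Vil1 (mean 12.33). In whole tissue, fewer cells of a type and less RNA per cell cannot be told apart.

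The files hold no background measurement. A dim line was therefore set at a log2 signal of 5.26, the 95th percentile of the 12-array means of 1194 odorant and vomeronasal receptor genes, a class with little known use in the gut. Of all genes, 29.2% had a mean under it. Among the chemokine ligands, 23 lay above the line in all 6 groups, 4 (Ccl1, Ccl4, Cxcl17 and Xcl1) in some groups, and 8 (Ccl8, Ccl12, Ccl26, Cxcl2, Cxcl3, Cxcl5, Cxcl15 and Pf4) in none. Folds are left out wherever either group averaged under the line. The plot of signals on every array shows each gene against this line.

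**Figure D1:**
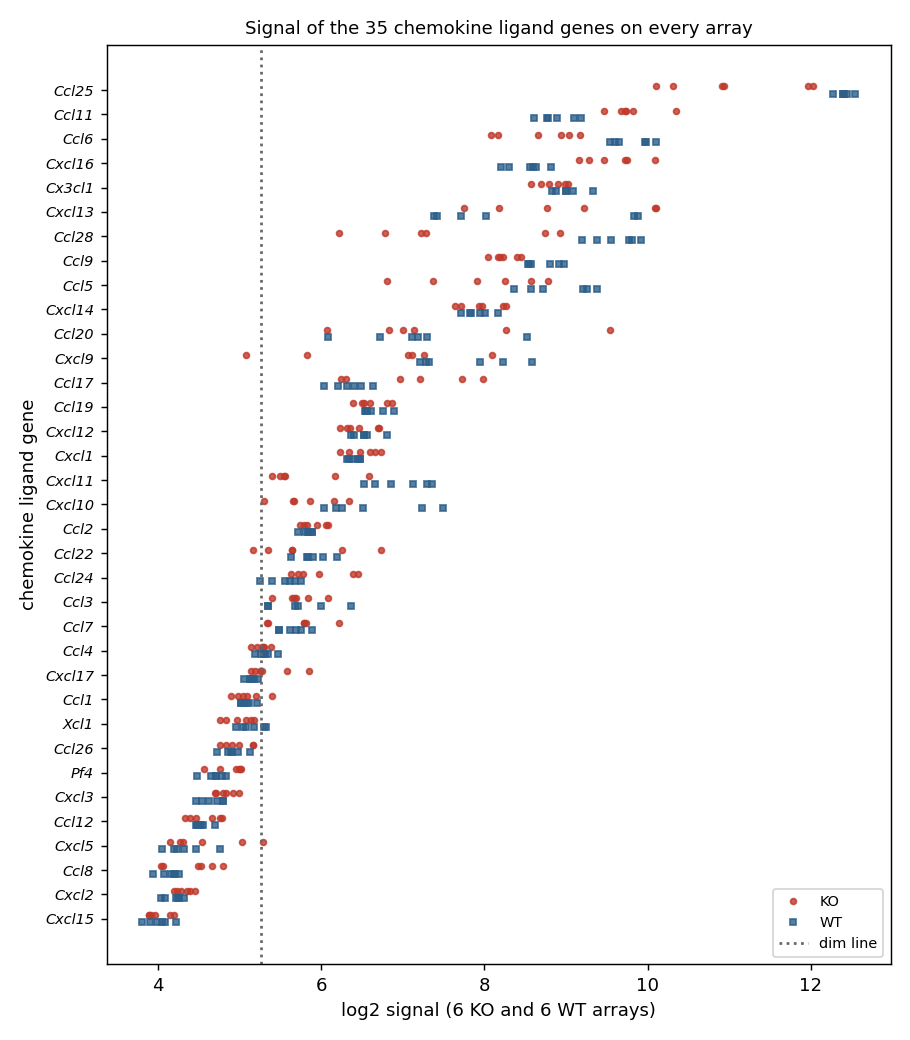
Log2 signal of each of the 35 chemokine ligand genes (rows, ordered by their mean) on 6 KO arrays (circles) and 6 WT arrays (squares), with the dim line at 5.26 (dotted). Ccl25 and Ccl28 split into lower KO and higher WT signals, while the 8 genes from Cxcl15 to Ccl26 at the bottom have all group means left of the line. Signals of different probe sets do not rank amounts of RNA.

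At day 6, 1 of the 35 genes rose in KO (Cxcl16) and 0 fell, beside 1.03% of all genes called in either direction (0.597% higher and 0.431% lower). At day 9, 8 rose and 8 fell, that is 45.7% of the 35 beside 29.7% of all genes (12.6% higher and 17.1% lower). At day 12, 5 rose and 10 fell, that is 42.9% of the 35 beside 27.3% of all genes (13.7% higher and 13.7% lower). The genes that fell with the largest differences were the mucosal ligands Ccl28 and Ccl25, the interferon-induced Cxcl9, Cxcl10 and Cxcl11, and the lymphocyte and myeloid ligands Ccl5 and Ccl6. The rises with the largest differences were those of Ccl17, Ccl11, Ccl24 and Cxcl16 at day 9 and of Ccl20 and Cxcl16 at day 12. In all, 20 genes were called at day 9 or day 12, of which 11 at both days, 5 at day 9 and not at day 12, and 4 at day 12 and not at day 9. The median difference of the 35 genes was 0.01 at day 6, 0.12 at day 9 and -0.01 at day 12, beside 0.00, 0.02 and 0.02 over all genes. The 3 comparisons use different mice.

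**Figure D2:**
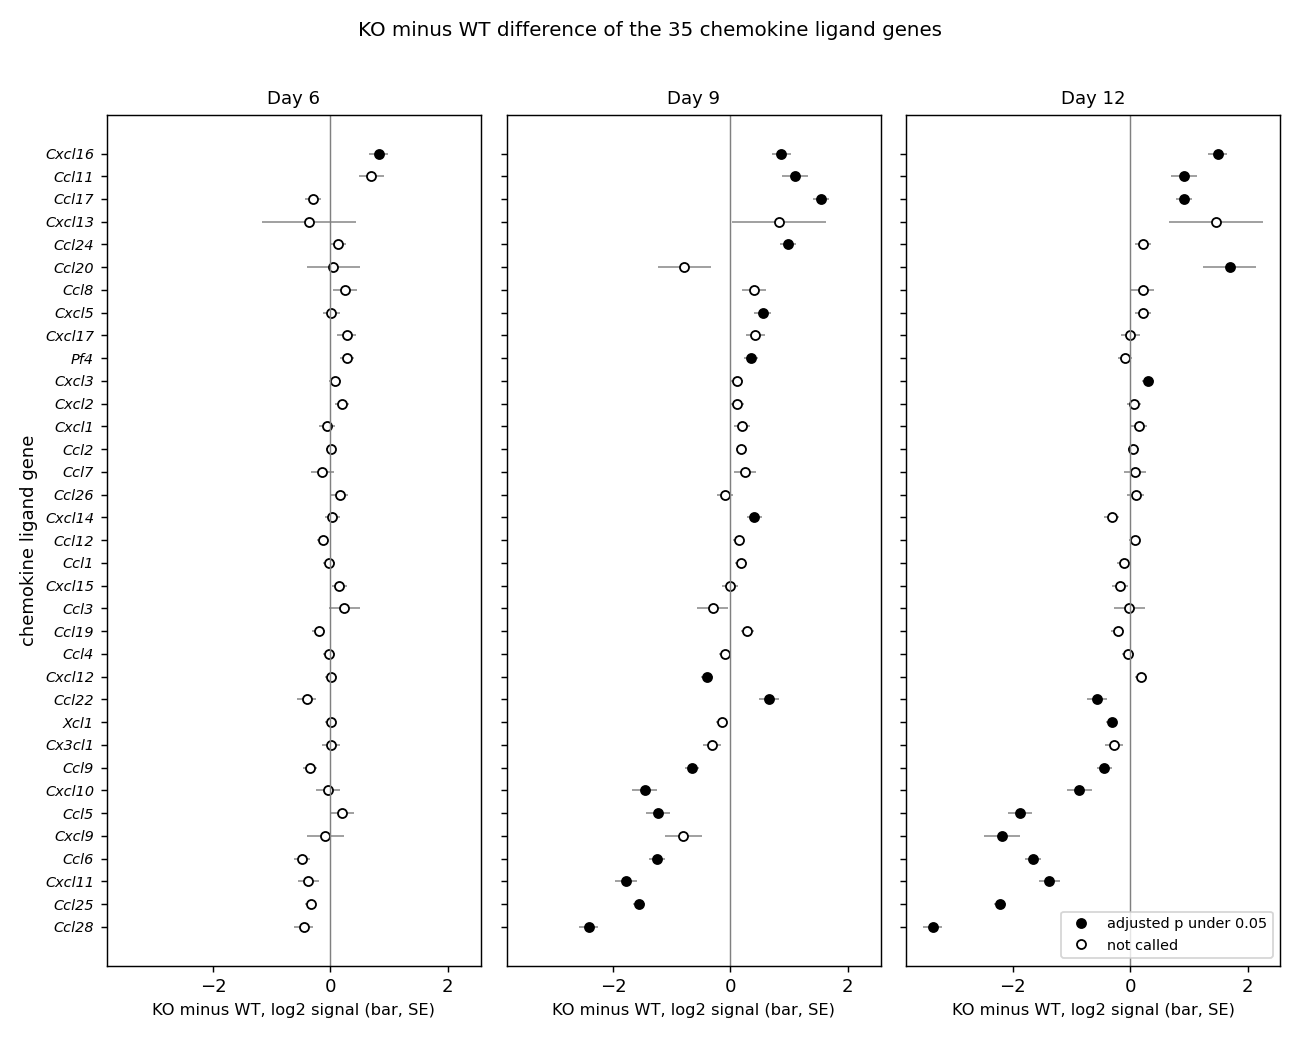
KO minus WT difference of log2 signal (x axis, bar SE) for the 35 chemokine ligand genes (rows, ordered by the average over days) at days 6, 9 and 12; filled points passed at an adjusted p under 0.05. Cxcl16 is the one filled point at day 6, and Ccl28 lies farthest left at days 9 and 12 (-2.41 and -3.36).

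The mucosal epithelial ligands were Ccl25, Ccl28 and Ccl20, and the first pair fell at both later days. Ccl25, the ligand of the gut-homing receptor Ccr9, had log2 signals of 12.03 and 11.97 in KO mice, against 12.40 and 12.28 in WT mice, at day 6. At day 9 its signals were 10.91 and 10.93 in KO mice, against 12.41 and 12.54 in WT mice. At day 12 they were 10.11 and 10.31 in KO mice, against 12.40 and 12.45 in WT mice. The groups did not overlap at any day, and the KO mice stood lowest at day 12, with WT mice near one level throughout. Ccl25 was 2.93-fold lower in KO at day 9 (log2 difference -1.55, SE 0.10, limma adjusted p = 8.45e-07) and 4.64-fold lower at day 12 (log2 difference -2.22, SE 0.10, limma adjusted p = 4.05e-08). The day 6 difference of -0.34 did not pass (adjusted p = 0.16). A further, dimmer probe set of Ccl25 had signals of 6.38 and 6.82 in KO mice, against 7.50 and 7.48 in WT mice, at day 9 (log2 difference -0.89, SE 0.16, limma adjusted p over all 35556 probe sets = 0.00483). At day 12 it had 6.64 and 7.03 in KO mice, against 7.43 and 7.51 in WT mice (log2 difference -0.64, SE 0.16, limma adjusted p over all probe sets = 0.0243). Its KO signals were therefore not lowest at day 12.

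Ccl28, a ligand of Ccr10 and Ccr3 that attracts IgA-secreting cells to mucosae, moved further. Its log2 signals were 8.74 and 8.93 in KO mice, against 9.38 and 9.20 in WT mice, at day 6. They were 7.29 and 7.22 in KO mice, against 9.77 and 9.56 in WT mice, at day 9 and 6.22 and 6.79 in KO mice, against 9.81 and 9.91 in WT mice, at day 12. Every KO signal was below every WT signal of the same day, and the gap widened from day to day. Ccl28 was 5.31-fold lower in KO at day 9 (log2 difference -2.41, SE 0.16, limma adjusted p = 1.27e-06) and 10.3-fold lower at day 12 (log2 difference -3.36, SE 0.16, limma adjusted p = 7.34e-08). Between days, the KO minus WT difference changed for Ccl28 (moderated F, adjusted p = 3.53e-05) and for Ccl25 (adjusted p = 2.3e-05). Within KO mice, Ccl28 fell by 1.58 (SE 0.16, adjusted p = 7.54e-05) on the log2 scale between days 6 and 9, and by 0.75 (SE 0.16, adjusted p = 0.00799) between days 9 and 12. The call of the later step ended without KO replicate 1 of day 9 (adjusted p = 0.0534).

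The promoters of both genes are printed here because these 2 ligands had the largest falls averaged over days. Each sequence runs 5′ to 3′ on the gene's strand from 250 bases before to 50 bases after a transcription start of RefSeq, build GRCm38.p6, and 24 of the 35 genes have such an entry. Capitals mark matches to 7 motifs searched on both strands: the NF-kB consensus, the interferon response core (GAAA and GAAA, 2 bases apart), the STAT element (TTC and GAA, 3 bases apart), the STAT6-type element (TTC and GAA, 4 bases apart), the TATA box TATAAA, the CDX-type element TTTATNG and the AP-1 element TGACTCA. Of 32851 promoters of that length, these were found in 8.46%, 3.44%, 8.3%, 6.95%, 13.6%, 10.9% and 5.2%, in the same order.
Ccl25, chr8:4349338-4349637, plus strand: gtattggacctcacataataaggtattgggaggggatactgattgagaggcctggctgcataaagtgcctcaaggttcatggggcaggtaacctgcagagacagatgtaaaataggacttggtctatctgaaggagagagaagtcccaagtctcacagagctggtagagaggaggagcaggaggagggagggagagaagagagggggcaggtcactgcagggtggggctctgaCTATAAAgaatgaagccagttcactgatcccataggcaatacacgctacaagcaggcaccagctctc
Ccl28, chr13:119623569-119623868, plus strand: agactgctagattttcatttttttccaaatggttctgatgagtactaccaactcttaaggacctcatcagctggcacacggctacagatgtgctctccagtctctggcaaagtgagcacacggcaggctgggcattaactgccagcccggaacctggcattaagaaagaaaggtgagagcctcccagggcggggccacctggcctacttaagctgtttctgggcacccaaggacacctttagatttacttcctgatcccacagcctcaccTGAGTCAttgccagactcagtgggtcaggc
The Ccl25 sequence is that of 1 of 2 starts listed and was chosen because it holds a TATA box match, at -16 to -11 from the start, which overlaps a CDX-type match on the other strand. The Ccl28 sequence holds an AP-1 match on the minus strand at 21 to 27 after the start. A match of letters is a description and shows no binding.

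Enterocyte markers moved in the same direction as Ccl25 and Ccl28. Of 12 such markers, 7 fell and 0 rose in KO at day 9, and 8 fell and 1 rose at day 12. Of all genes, 17.1% were lower and 12.6% higher at day 9, and 13.7% each at day 12. The mean log2 signal of the list was 11.67 and 11.84 in KO mice, against 12.82 and 12.90 in WT mice, at day 9 and 11.34 and 11.84 in KO mice, against 12.97 and 12.96 in WT mice, at day 12. Of 8 general epithelial markers, 3 rose and 0 fell at day 9, with a list mean of 11.86 and 11.84 in KO mice, against 11.43 and 11.44 in WT mice. At day 12, 2 rose and 1 fell, with a mean of 11.66 and 11.37 in KO mice, against 11.41 and 11.25 in WT mice. Epcam, an adhesion protein of all gut epithelium, stood at -0.04 (SE 0.11, adjusted p = 0.795) at day 9 and -0.22 (SE 0.11, adjusted p = 0.164) at day 12, and Cdh1, the epithelial cadherin, at 0.19 and 0.22 without passing. The part of the enterocyte change in the falls of Ccl25 and Ccl28 was not tested.

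Ccl20, the Ccr6 ligand made by epithelium over lymphoid follicles and by inflamed epithelium, took another course. Its log2 signals were 6.83 and 6.07 in KO mice, against 6.09 and 6.72 in WT mice, at day 6, and 7.0 and 7.14 in KO mice, against 8.52 and 7.19 in WT mice, at day 9. At day 12 they were 9.54 and 8.27 in KO mice, against 7.30 and 7.11 in WT mice. The groups overlapped at day 6, and WT replicate 1 stood alone at day 9, while both KO mice of day 12 lay above both WT mice. Ccl20 was 3.25-fold higher in KO at day 12 (log2 difference 1.70, SE 0.45, limma adjusted p = 0.0151). That call ended without KO replicate 1 of day 12 (1.06, adjusted p = 0.131), WT replicate 1 (1.79, adjusted p = 0.0547) or WT replicate 2 (1.61, adjusted p = 0.0846). It also ended with a trended, robust variance prior (1.70, adjusted p = 0.0709).

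**Figure D3:**
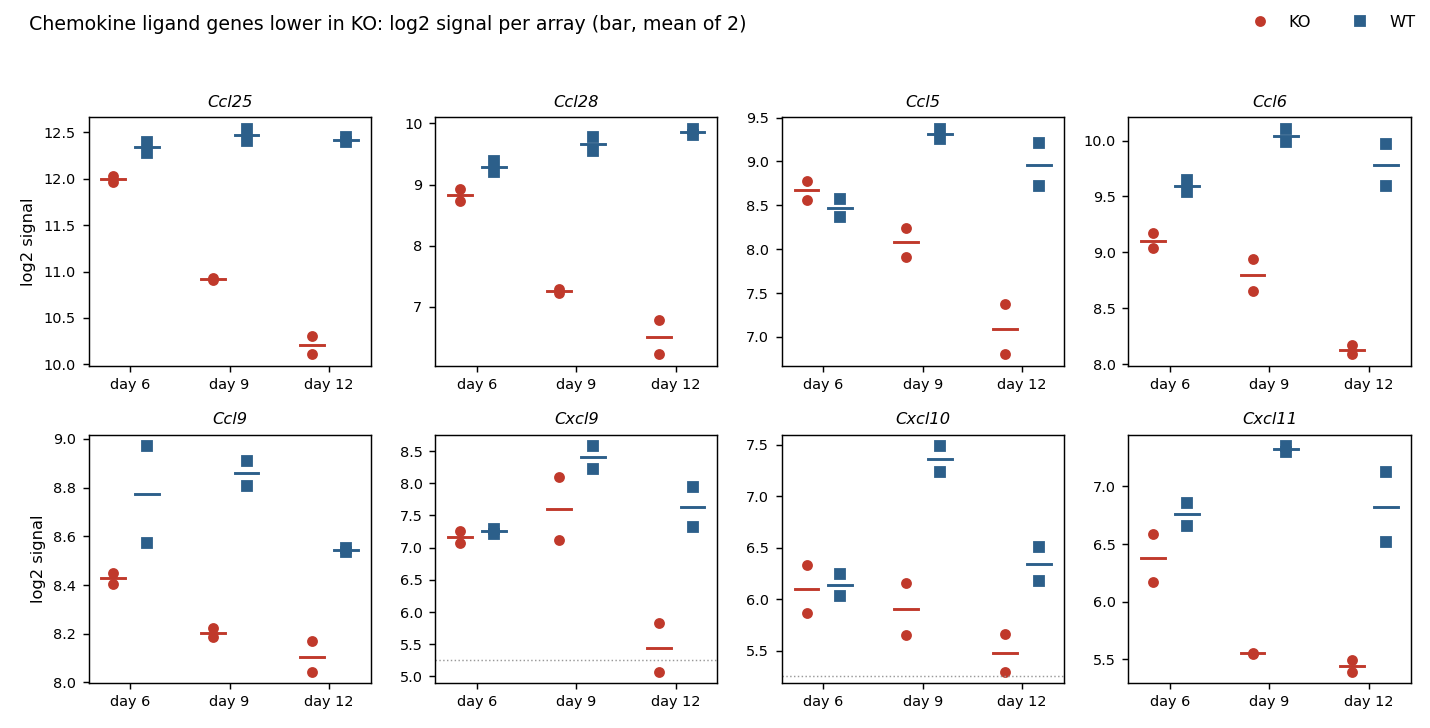
Log2 signal (y axis) of 8 chemokine ligand genes on each array by day, KO (circles) left of WT (squares), with a bar at the mean of 2 mice and the dim line (dotted) where it is in range; y axes differ and do not start at 0. Ccl25, Ccl28, Ccl5 and Ccl6 show KO points under all WT points at days 9 and 12, and Cxcl9 lies under the dim line in 1 KO mouse of day 12.

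The interferon-induced ligands of Cxcr3, the receptor of activated T cells, did not differ past the threshold at day 6 and were lower in KO later. At day 9, 2 of the 3 fell, and at day 12 all 3 fell. Cxcl10 had log2 signals of 6.34 and 5.86 in KO mice, against 6.03 and 6.25 in WT mice, at day 6. At day 9 it had 5.65 and 6.15 in KO mice, against 7.49 and 7.24 in WT mice. At day 12 it had 5.67 and 5.30 in KO mice, against 6.51 and 6.18 in WT mice. The groups overlapped at day 6 and were apart at days 9 and 12, with the WT mice of day 9 highest and KO replicate 2 of day 12 lowest, just above the dim line. Cxcl10 was 2.75-fold lower in KO at day 9 (log2 difference -1.46, SE 0.21, limma adjusted p = 0.000319) and 1.82-fold lower at day 12 (log2 difference -0.86, SE 0.21, limma adjusted p = 0.00882). The day 12 call ended without KO replicate 2 (-0.68, adjusted p = 0.0655) or WT replicate 1 (-0.70, adjusted p = 0.0831).

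Cxcl11, its neighbour in the genome, differed by -0.38 at day 6 without passing (limma adjusted p = 0.454). It then had signals of 6.59 and 6.17 in KO mice, against 6.86 and 6.66 in WT mice, without overlap. It had 5.54 and 5.55 in KO mice, against 7.35 and 7.30 in WT mice, at day 9 and 5.39 and 5.49 in KO mice, against 7.13 and 6.52 in WT mice, at day 12. It was 3.43-fold lower at day 9 (log2 difference -1.78, SE 0.18, limma adjusted p = 2.78e-05) and 2.6-fold lower at day 12 (log2 difference -1.38, SE 0.18, limma adjusted p = 0.00015), and both calls held with any 1 array left out. RefSeq, in build GRCm38.p6, classes mouse Cxcl11 as a transcribed pseudogene in the reference strain, so this is a transcript signal. Cxcl9 had signals of 7.07 and 7.26 in KO mice, against 7.21 and 7.29 in WT mice, at day 6. It had 7.11 and 8.09 in KO mice, against 8.58 and 8.23 in WT mice, at day 9, where KO replicate 2 lay close to WT. At day 12 its signals were 5.82 and 5.08 in KO mice, against 7.32 and 7.94 in WT mice. Cxcl9 was 4.54-fold lower in KO at day 12 (log2 difference -2.18, SE 0.31, limma adjusted p = 0.000293), and at day 9 the difference of -0.80 did not pass (adjusted p = 0.0782). Without KO replicate 2 of day 9 that difference was -1.29 (adjusted p = 0.0104). Within KO mice, Cxcl9 fell by 2.15 (SE 0.31, adjusted p = 0.00113) on the log2 scale between days 9 and 12.

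The promoters of Cxcl9 and Cxcl10 are shown as those of interferon-induced neighbours that were both lower in KO at day 12. They have the same source, build and marking as above.
Cxcl9, chr5:92328030-92328329, minus strand: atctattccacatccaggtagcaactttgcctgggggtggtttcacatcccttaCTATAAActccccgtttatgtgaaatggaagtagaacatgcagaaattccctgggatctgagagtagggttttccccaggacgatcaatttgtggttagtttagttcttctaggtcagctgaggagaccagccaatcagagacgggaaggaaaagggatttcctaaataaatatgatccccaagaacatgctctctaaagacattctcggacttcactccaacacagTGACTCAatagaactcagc
Cxcl10, chr5:92348840-92349139, minus strand: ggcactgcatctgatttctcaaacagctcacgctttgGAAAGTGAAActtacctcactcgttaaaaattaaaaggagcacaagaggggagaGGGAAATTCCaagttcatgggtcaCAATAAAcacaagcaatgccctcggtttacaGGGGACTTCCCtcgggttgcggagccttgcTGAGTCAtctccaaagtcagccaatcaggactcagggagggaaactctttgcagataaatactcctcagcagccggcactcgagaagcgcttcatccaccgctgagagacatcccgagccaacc
Cxcl10 holds the interferon response core at -213 to -204, NF-kB consensus matches at -159 to -150 and at -104 to -94 (overlapping matches on both strands), a CDX-type match at -135 to -129 and an AP-1 match at -74 to -68. Cxcl9 holds a TATA box match at -195 to -190, overlapped by a CDX-type match, and an AP-1 match at 32 to 38. Of the 24 genes with a promoter entry, 7 held the NF-kB consensus and 3 the interferon response core.

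Other genes induced by interferon gamma were lower in KO beside these ligands. Of 9 measured targets, 7 were lower and 0 higher in KO at day 9, and again 7 lower and 0 higher at day 12. Of all genes, 17.1% were lower at day 9 and 13.7% at day 12. The list medians were -0.81 and -1.0 beside 0.02 and 0.02 over all genes. Ido1, a tryptophan-degrading enzyme, stood at -3.47 (SE 0.31, adjusted p = 9.92e-06) at day 9, the GTPase Irgm1 at -1.97 (SE 0.22, adjusted p = 5.28e-05), and the transcription factor Irf1 at -1.37 (SE 0.19, adjusted p = 0.000275) at day 12. The list mean was 6.95 and 7.04 in KO mice, against 6.92 and 6.96 in WT mice, at day 6 and 6.60 and 6.77 in KO mice, against 7.97 and 7.63 in WT mice, at day 9. From day 6 to day 9 it thus went down in KO mice and up in WT mice. Ifng itself was dim in all 6 groups and did not pass (-0.19 at day 9 and -0.13 at day 12). Of 11 feedback targets of NF-kB, the inflammatory transcription factor, 5 were lower and 0 higher in KO at each of days 9 and 12. Their list mean was 7.71 and 7.71 in KO mice, against 7.79 and 7.83 in WT mice, at day 6. At day 9 it was 7.77 and 7.72 in KO mice, against 8.28 and 8.15 in WT mice, so the WT mice moved more. Examples at day 9 were the deubiquitinase Tnfaip3 at -1.35 (SE 0.17, adjusted p = 0.000132) and the inhibitor Nfkbia at -1.10 (SE 0.14, adjusted p = 0.000112). The day 12 count of NF-kB targets was 8 if KO replicate 1 of that day was left out, 2 if KO replicate 2 was, and 3 if WT replicate 2 was.

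Of 5 inflammatory CC ligands that attract myeloid cells and T cells, 3 fell (Ccl5, Ccl6 and Ccl9) and 2 did not pass (Ccl3 and Ccl4) at both later days. Ccl5, produced by activated and intraepithelial T cells, had log2 signals of 8.56 and 8.77 in KO mice, against 8.37 and 8.57 in WT mice, at day 6. Its signals were 7.91 and 8.25 in KO mice, against 9.37 and 9.25 in WT mice, at day 9 and 7.38 and 6.80 in KO mice, against 8.72 and 9.21 in WT mice, at day 12. The groups overlapped at day 6 and were apart at both later days. Ccl5 was 2.35-fold lower in KO at day 9 (log2 difference -1.23, SE 0.20, limma adjusted p = 0.00082) and 3.67-fold lower at day 12 (log2 difference -1.87, SE 0.20, limma adjusted p = 3.44e-05). Both calls held with any 1 array left out.

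Ccl6 and Ccl9 are neighbouring ligand genes of the rodent genome. Ccl6 had signals of 9.03 and 9.17 in KO mice, against 9.54 and 9.65 in WT mice, at day 6, and 8.65 and 8.94 in KO mice, against 10.11 and 9.98 in WT mice, at day 9. At day 12 it had 8.09 and 8.17 in KO mice, against 9.97 and 9.60 in WT mice. Each KO mouse was below each WT mouse of its day, with a difference that passed at day 9 (2.37-fold lower, log2 difference -1.25, SE 0.14, limma adjusted p = 4.5e-05) and day 12 (3.15-fold lower, log2 difference -1.66, SE 0.14, limma adjusted p = 4e-06), not at day 6 (-0.49, adjusted p = 0.143). Ccl9 differed less and had 8.40 and 8.45 in KO mice, against 8.57 and 8.97 in WT mice, at day 6 without passing. Its signals were 8.19 and 8.22 in KO mice, against 8.81 and 8.91 in WT mice, at day 9 (1.57-fold lower, log2 difference -0.66, SE 0.12, limma adjusted p = 0.00169). At day 12 its signals were 8.04 and 8.17 in KO mice, against 8.55 and 8.54 in WT mice (log2 difference -0.44, SE 0.12, limma adjusted p = 0.018), a call that ended without KO replicate 1 (-0.37, adjusted p = 0.0931), WT replicate 1 (-0.43, adjusted p = 0.0819) or WT replicate 2 (-0.44, adjusted p = 0.0756). Ccl3 and Ccl4, which lie beside them and overlap in RefSeq's annotation, kept KO signals of 5.39 to 6.08 and 5.14 to 5.38, against WT signals of 5.35 to 6.36 and 5.19 to 5.47. Their differences lay between -0.30 and 0.24 at the 3 days.

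The mean of T cell and intraepithelial lymphocyte markers moved with Ccl5, though not every marker did. Of 11 markers, 5 fell and 1 rose in KO at day 9, beside 17.1% and 12.6% of all genes. At day 12, 8 fell and 0 rose, beside 13.7% of all genes in each direction. The day 12 count was 5 without WT replicate 2 of that day. The list mean was 6.08 and 6.30 in KO mice, against 7.03 and 6.88 in WT mice, at day 9 and 5.82 and 5.64 in KO mice, against 6.70 and 7.02 in WT mice, at day 12. Gzma, a granzyme of cytotoxic lymphocytes, stood at -2.68 (SE 0.29, adjusted p = 4e-05) at day 12 and Cd3g, a subunit of the T cell receptor complex, at -2.10 (SE 0.17, adjusted p = 3.81e-06). The marker that rose at day 9 was Cd247 (log2 difference 0.30, SE 0.10, limma adjusted p = 0.0487). Cd8b1 passed at neither day, with 0.06 at day 9 and -0.42 at day 12. Cd3d and Trat1 were dim in all 6 groups. Xcl1, a ligand made by natural killer and CD8 T cells, was dim in 5 of 6 groups, with 4.97 and 5.08 in KO mice, against 4.96 and 5.08 in WT mice, at day 6 and 5.18 and 5.14 in KO mice, against 5.32 and 5.30 in WT mice, at day 9. Its signals were 4.84 and 4.76 in KO mice, against 5.18 and 5.04 in WT mice, at day 12 (log2 difference -0.31, SE 0.09, limma adjusted p = 0.0259). That call ended without KO replicate 2 (-0.27, adjusted p = 0.101) or WT replicate 1 (-0.24, adjusted p = 0.181). The part of lymphocyte numbers in these differences was not tested.

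Rises began with Cxcl16, a membrane-bound ligand of Cxcr6 that also acts as a scavenger receptor. Cxcl16 had log2 signals of 9.28 and 9.16 in KO mice, against 8.20 and 8.59 in WT mice, at day 6. It had 9.46 and 9.72 in KO mice, against 8.64 and 8.82 in WT mice, at day 9 and 10.09 and 9.75 in KO mice, against 8.56 and 8.30 in WT mice, at day 12. KO mice lay above WT mice at each day without overlap. Cxcl16 was 1.77-fold higher in KO at day 6 (log2 difference 0.82, SE 0.16, limma adjusted p = 0.0433), 1.82-fold higher at day 9 (log2 difference 0.87, SE 0.16, limma adjusted p = 0.00183) and 2.81-fold higher at day 12 (log2 difference 1.49, SE 0.16, limma adjusted p = 3.41e-05). A change of this difference between days did not pass (moderated F, adjusted p = 0.0904). The day 6 call was near the threshold and ended with quantile normalisation (0.79, adjusted p = 0.0584). It also ended without KO replicate 1 (0.76, adjusted p = 0.284), KO replicate 2 (0.88, adjusted p = 0.204) or WT replicate 1 of that day (0.63, adjusted p = 0.319). Leaving out any WT array of day 9 or day 12 ended it as well, at adjusted p = 0.0611 and 0.0597. The calls of days 9 and 12 held with any 1 array left out. At day 6 the mean of 12 smooth muscle markers was 7.96 and 7.81 in KO mice, against 9.62 and 8.93 in WT mice, with 1 of them lower past the threshold, and the part of this in the Cxcl16 value was not tested. Cx3cl1, the other membrane-bound ligand, had signals of 8.57 to 9.02 in KO mice, against 8.82 to 9.33 in WT mice, and passed at no day.

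**Figure D4:**
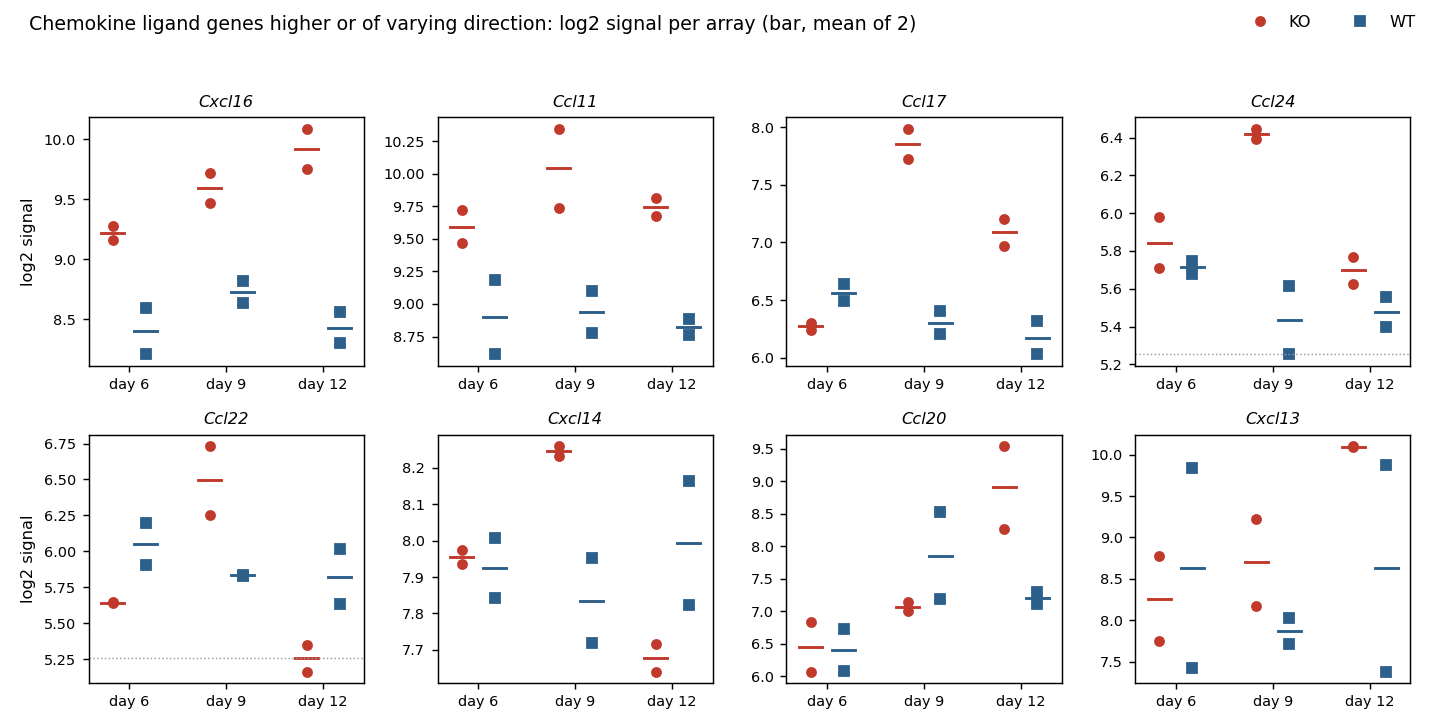
Log2 signal (y axis) of 8 further chemokine ligand genes on each array by day, KO (circles) left of WT (squares), with a bar at the mean of 2 mice and the dim line (dotted) where it is in range; y axes differ and do not start at 0. Cxcl16 and Ccl11 have KO above WT at every day, Ccl17, Ccl24, Ccl22 and Cxcl14 have their highest KO signals at day 9, and Cxcl13 shows 1 high WT mouse at day 6 and at day 12.

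The eosinophil-attracting ligands Ccl11 and Ccl24, both ligands of Ccr3, rose at day 9. Ccl11, eotaxin, had signals of 9.72 and 9.47 in KO mice, against 9.18 and 8.61 in WT mice, at day 6 and 9.74 and 10.35 in KO mice, against 8.77 and 9.10 in WT mice, at day 9. At day 12 it had 9.67 and 9.81 in KO mice, against 8.89 and 8.76 in WT mice. KO lay above WT on every array of the same day. Ccl11 was 2.15-fold higher in KO at day 9 (log2 difference 1.10, SE 0.21, limma adjusted p = 0.00249) and 1.89-fold higher at day 12 (log2 difference 0.92, SE 0.21, limma adjusted p = 0.00743), while 0.70 at day 6 did not pass (adjusted p = 0.193). The day 12 call ended without WT replicate 2 (0.86, adjusted p = 0.0554). Ccl24 had signals of 5.98 and 5.71 in KO mice, against 5.68 and 5.75 in WT mice, at day 6. It had 6.39 and 6.45 in KO mice, against 5.62 and 5.25 in WT mice, at day 9, with WT replicate 2 at the dim line, and was 1.98-fold higher in KO (log2 difference 0.99, SE 0.13, limma adjusted p = 0.000209). At day 12 the Ccl24 signals of 5.77 and 5.63 in KO mice, against 5.56 and 5.40 in WT mice, no longer passed (0.22, adjusted p = 0.267). Of 7 eosinophil and mast cell markers, 2 rose and 1 fell at day 9, beside 12.6% and 17.1% of all genes. The risers Epx and Mcpt2 were dim in all groups. The eosinophil marker Siglecf stood at -0.31 (SE 0.13, adjusted p = 0.107) at day 9.

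Ccl17 and Ccl22 are ligands of Ccr4, a receptor of type 2 and regulatory T cells, and flank Cx3cl1 in the genome. Ccl17 had signals of 6.30 and 6.24 in KO mice, against 6.49 and 6.64 in WT mice, at day 6, with KO the lower. At day 9 they were 7.72 and 7.99 in KO mice, against 6.40 and 6.20 in WT mice, and at day 12 6.97 and 7.21 in KO mice, against 6.03 and 6.32 in WT mice, with KO the higher at both. Ccl17 was 2.93-fold higher in KO at day 9 (log2 difference 1.55, SE 0.14, limma adjusted p = 8.93e-06) and 1.88-fold higher at day 12 (log2 difference 0.91, SE 0.14, limma adjusted p = 0.000376). Ccl22 had 5.64 and 5.65 in KO mice, against 5.90 and 6.20 in WT mice, at day 6 and 6.25 and 6.73 in KO mice, against 5.84 and 5.83 in WT mice, at day 9, a 1.58-fold rise (log2 difference 0.66, SE 0.17, limma adjusted p = 0.0119). At day 12 the direction was turned, with 5.16 and 5.35 in KO mice, against 5.63 and 6.02 in WT mice and 1.48-fold lower signal in KO (log2 difference -0.57, SE 0.17, limma adjusted p = 0.0266). The KO mean of day 12 was at the dim line. The day 9 call of Ccl22 ended without KO replicate 2 (0.42, adjusted p = 0.0981), WT replicate 1 (0.66, adjusted p = 0.0560) or WT replicate 2 (0.66, adjusted p = 0.0627). The day 12 call ended without KO replicate 1 (-0.47, adjusted p = 0.133) or WT replicate 2 (-0.37, adjusted p = 0.227). The change between days passed for both genes (moderated F, adjusted p = 0.000255 for Ccl17 and 0.00813 for Ccl22) and held with any 1 array left out.

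The Ccl17 promoter is shown as that of the ligand with the largest rise at day 9, in the same form as above.
Ccl17, chr8:94810203-94810502, plus strand: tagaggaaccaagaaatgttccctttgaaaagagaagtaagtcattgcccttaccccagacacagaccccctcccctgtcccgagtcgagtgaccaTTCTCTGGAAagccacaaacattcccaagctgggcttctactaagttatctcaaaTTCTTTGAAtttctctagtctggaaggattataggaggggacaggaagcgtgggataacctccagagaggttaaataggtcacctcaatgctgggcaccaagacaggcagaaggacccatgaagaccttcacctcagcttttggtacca
The capitals mark a STAT6-type match at -154 to -145 and a STAT element match at -99 to -91. Both search patterns are symmetric, so each match counts on either strand. Il4 was dim in all 6 groups and Il13 was not, and these inducers of STAT6 did not pass at day 9 (0.03 and -0.23). Of 13 measured cytokines listed as inducers of chemokines, 2 rose and 0 fell at day 9, beside 12.6% and 17.1% of all genes. At day 12, 0 rose and 3 fell, beside 13.7% of all genes in each direction. Il33, an epithelial and stromal alarm cytokine, rose at day 9 (log2 difference 1.36, SE 0.25, limma adjusted p = 0.00164). It fell at day 12 (log2 difference -0.93, SE 0.25, limma adjusted p = 0.0151). The other riser of day 9 was Il1b, at 0.58. The part of these cytokines in the Ccl17 rise was not tested.

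The ligands of Cxcr2, the receptor of neutrophils, were dim apart from Cxcl1. Cxcl1 had signals of 6.60 and 6.66 in KO mice, against 6.47 and 6.37 in WT mice, at day 9 and 6.73 and 6.23 in KO mice, against 6.31 and 6.34 in WT mice, at day 12, and passed at no day. Without KO replicate 2 of day 12 its difference was 0.41 (adjusted p = 0.0153). Cxcl5 had 5.03 and 5.28 in KO mice, against 4.76 and 4.46 in WT mice, at day 9 (log2 difference 0.55, SE 0.14, limma adjusted p = 0.0133), with 1 KO mouse above the dim line. At day 6 it had 4.27 and 4.31 in KO mice, against 4.23 and 4.31 in WT mice, and at day 12 4.53 and 4.15 in KO mice, against 4.19 and 4.05 in WT mice, without passing. The day 9 call ended without KO replicate 2 (0.42, adjusted p = 0.0919) or WT replicate 2 (0.40, adjusted p = 0.131). Cxcl3 had 4.80 and 4.71 in KO mice, against 4.63 and 4.73 in WT mice, at day 6 and 4.99 and 4.84 in KO mice, against 4.79 and 4.79 in WT mice, at day 9. It had 4.92 and 4.70 in KO mice, against 4.53 and 4.47 in WT mice, at day 12 (log2 difference 0.31, SE 0.10, limma adjusted p = 0.0434), all under the dim line. Its call ended in 9 of 12 fits with 1 array left out and with quantile normalisation (0.28, adjusted p = 0.0512). Cxcl2 signals stayed between 4.20 and 4.45 in KO mice, against 4.04 to 4.32 in WT mice. Stretches of 60 bases around the first NF-kB consensus match (capitals) of the Cxcl1, Cxcl2 and Cxcl3 promoters are shown because these neighbours share that element and had no difference past the threshold at day 9.
Cxcl1, chr5:90891154-90891213, plus strand: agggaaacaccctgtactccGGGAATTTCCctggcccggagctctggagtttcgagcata
Cxcl2, chr5:90903782-90903841, plus strand: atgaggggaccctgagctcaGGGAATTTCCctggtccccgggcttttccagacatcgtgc
Cxcl3, chr5:90786008-90786067, plus strand: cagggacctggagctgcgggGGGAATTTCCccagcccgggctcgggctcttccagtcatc
The match starts at -71, -97 and -73 from the start. Aligned on it, Cxcl1 shared 30 of 60 bases with Cxcl2 and 30 with Cxcl3, and Cxcl2 shared 24 with Cxcl3. Of 11 neutrophil markers, 4 rose at day 9 and 3 at day 12, beside 12.6% and 13.7% of all genes, and 0 fell. The 11 markers had list means of 5.33 and 5.50 in KO mice, against 5.03 and 5.04 in WT mice, at day 9. Among them S100a8, Ly6g, Mmp8, Ngp and Cxcr2 were dim in all groups, and Retnlg, a resistin-like protein, stood at 2.60 (SE 0.23, adjusted p = 6.6e-06) at day 12.

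The monocyte-attracting ligands Ccl2, Ccl7, Ccl8 and Ccl12 passed at no day, with differences from -0.14 to 0.41, and Ccl8 and Ccl12 were dim. Ccl7 signals ran from 5.34 to 6.22 in KO mice, against 5.48 to 5.88 in WT mice. Those of Ccl8 ran from 4.04 to 4.79 in KO mice, against 3.94 to 4.25 in WT mice, and those of Ccl12 from 4.33 to 4.78 in KO mice, against 4.46 to 4.69 in WT mice. Ccl2, the principal ligand of Ccr2, had 6.08 and 6.05 in KO mice, against 5.88 and 5.89 in WT mice, at day 9 (log2 difference 0.18, SE 0.09, adjusted p = 0.168). These genes lie beside Ccl11 in the genome, which rose. Of 10 macrophage and monocyte markers, 3 rose and 0 fell at day 9, beside 12.6% and 17.1% of all genes. At day 12, 7 rose and 1 fell, beside 13.7% of all genes in each direction. The list mean was 8.01 and 7.91 in KO mice, against 7.41 and 7.37 in WT mice, at day 12. Cd163, a scavenger receptor of tissue macrophages, then stood at 1.87 (SE 0.13, limma adjusted p = 1.18e-06). The marker that fell at day 12 was Adgre1 (log2 difference -0.38, SE 0.13, limma adjusted p = 0.0435), and Csf1r stood at -0.05 without passing. The day 9 count was 1 without WT replicate 1 of that day and 6 with quantile normalisation. Of fibroblast and lymphoid stroma markers, 4 of 10 rose and 0 fell at each of days 9 and 12, beside 12.6% and 13.7% of all genes higher. Their count at day 12 was 2 without KO replicate 1 or either WT mouse of that day. The part of these cells in the rises of Cxcl16, Ccl11 and Ccl24 was not tested.

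Lymphoid tissue ligands and constitutive ligands differed little or unevenly. Cxcl12, the stromal ligand of Cxcr4, had signals of 6.32 and 6.46 in KO mice, against 6.37 and 6.41 in WT mice, at day 6. It had 6.36 and 6.23 in KO mice, against 6.56 and 6.80 in WT mice, at day 9 (1.31-fold lower, log2 difference -0.39, SE 0.10, limma adjusted p = 0.0133). That call ended without KO replicate 2 (-0.33, adjusted p = 0.0756) or WT replicate 2 (-0.27, adjusted p = 0.142). At day 12 it stood at 6.70 and 6.71 in KO mice, against 6.52 and 6.53 in WT mice, with a difference of 0.18 that did not pass. Cxcl14, a ligand of epithelium and stroma, had 7.97 and 7.94 in KO mice, against 8.01 and 7.84 in WT mice, at day 6. It had 8.26 and 8.23 in KO mice, against 7.72 and 7.95 in WT mice, at day 9 (log2 difference 0.41, SE 0.12, limma adjusted p = 0.0263). Its call ended without KO replicate 1 (0.40, adjusted p = 0.109), KO replicate 2 (0.43, adjusted p = 0.0694) or WT replicate 1 (0.29, adjusted p = 0.198). At day 12 Cxcl14 had 7.72 and 7.64 in KO mice, against 8.16 and 7.82 in WT mice (log2 difference -0.31, SE 0.12, adjusted p = 0.0854), and without WT replicate 2 the difference was -0.48 (adjusted p = 0.0253).

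Cxcl13, which draws B cells into follicles through Cxcr5, had the largest SE of the 35 genes, 0.80. Its signals were 7.75 and 8.77 in KO mice, against 7.42 and 9.84 in WT mice, at day 6 and 9.22 and 8.18 in KO mice, against 7.72 and 8.02 in WT mice, at day 9. At day 12 they were 10.09 and 10.11 in KO mice, against 7.38 and 9.88 in WT mice. WT replicate 2 of day 6 and of day 12 stood far above WT replicate 1, and both KO mice of day 12 were above all other mice. No difference passed (log2 difference 1.47, SE 0.80, adjusted p = 0.221 at day 12). Without WT replicate 2 the day 12 difference was 2.72 (adjusted p = 0.0346). The mean of 10 B and plasma cell markers was high in the same WT mice. It was 6.38 and 6.95 in KO mice, against 6.40 and 7.58 in WT mice, at day 6. At day 12 it was 6.08 and 5.99 in KO mice, against 6.44 and 7.52 in WT mice. The plasma cell marker Jchain did not share this, with 11.28 and 10.93 in WT mice at day 6 and 11.51 and 11.47 at day 12. Of the 10 markers, 2 fell at day 9 and 3 at day 12, beside 17.1% and 13.7% of all genes, and 0 rose. Jchain stood at -1.46 (SE 0.18, limma adjusted p = 9.4e-05) at day 12. At day 9 the list means were 7.10 and 6.34 in KO mice, against 6.65 and 6.40 in WT mice. KO replicate 1 of day 9 was thus the highest of its day in both the list and Cxcl13. The KO mice of day 12 thus had the highest Cxcl13 and the lowest B and plasma cell list means of the 12 mice. Ccl19, a ligand of Ccr7, had signals of 6.39 to 6.87 in KO mice, against 6.54 to 6.90 in WT mice. It passed at no day (log2 difference 0.29, SE 0.11, adjusted p = 0.0742 at day 9, and 0.36, adjusted p = 0.0293, with quantile normalisation), and the platform assigns it 5 probe sets.

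Platelet factor 4, Pf4, had signals of 5.01 and 5.0 in KO mice, against 4.48 and 4.84 in WT mice, at day 9 (log2 difference 0.35, SE 0.12, limma adjusted p = 0.0461), all under the dim line. It had 4.99 and 4.95 in KO mice, against 4.65 and 4.72 in WT mice, at day 6 and 4.76 and 4.56 in KO mice, against 4.71 and 4.79 in WT mice, at day 12. The day 9 call ended in 9 of 12 fits with 1 array left out and with quantile normalisation (0.28, adjusted p = 0.0959). Of 5 other platelet markers, 0 were called at any day by limma. The remaining ligands, Ccl1, Ccl26, Cxcl15 and Cxcl17, passed at no day and averaged under the dim line in most groups. Ccl1 signals ran from 4.90 to 5.39 in KO mice, against 5.02 to 5.22 in WT mice, and those of Ccl26 from 4.76 to 5.17 in KO mice, against 4.72 to 5.13 in WT mice. Cxcl15 signals ran from 3.89 to 4.20 in KO mice, against 3.81 to 4.21 in WT mice, and those of Cxcl17 from 5.14 to 5.85 in KO mice, against 5.05 to 5.22 in WT mice, with 2 KO arrays of Cxcl17 apart from the rest. Without KO replicate 1 of day 9 the Cxcl17 difference was 0.72 (adjusted p = 0.00571), against 0.43 with it. A further 7 probe sets name several chemokine genes at once, the Ccl21 and Ccl27 copies, and are outside the 35 genes. The Ccl21 probe sets, identical to each other in value, had 9.02 and 8.78 in KO mice, against 8.29 and 8.36 in WT mice, at day 9, and passed at no day.

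Averaged over the 3 days, 6 genes were higher and 9 lower in KO, that is 42.9% beside 32.6% of all genes (15.7% higher and 16.9% lower). The average differences were -2.07 (SE 0.09, adjusted p = 2.89e-08) for Ccl28, -1.37 (SE 0.06, adjusted p = 1.45e-08) for Ccl25, -1.18 (SE 0.10, adjusted p = 5.2e-06) for Cxcl11 and -1.13 (SE 0.08, adjusted p = 7.13e-07) for Ccl6. Those of the rises were 1.06 (SE 0.09, adjusted p = 4.73e-06) for Cxcl16, 0.91 (SE 0.12, adjusted p = 0.000156) for Ccl11 and 0.72 (SE 0.08, adjusted p = 2.52e-05) for Ccl17. The average calls of Cxcl3, Cxcl5 and Xcl1, at differences of 0.17, 0.26 and -0.15, ended in 10, 7 and 9 of 12 fits with 1 array left out, with differences from 0.13 to 0.21, 0.20 to 0.33 and -0.17 to -0.13. The other 12 average calls held with any 1 array left out.

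Over time, 9 of the 35 genes changed within KO mice between days 6 and 9 (beside 24.5% of all genes), 6 up and 3 down, against 10% and 14.5% of all genes. Ccl17 rose by 1.58 (SE 0.14, adjusted p = 2.08e-05), Cxcl5 by 0.87 (SE 0.14, adjusted p = 0.00156) and Ccl22 by 0.85 (SE 0.17, adjusted p = 0.00437) on the log2 scale. Between days 9 and 12, 14 genes changed (beside 22.9% of all genes), 2 up and 12 down, against 14.1% and 8.81% of all genes. Ccl17, Ccl22, Ccl24 and Cxcl5, which were higher on the earlier step, were lower on this one, as with Ccl22 at -1.24 (SE 0.17, adjusted p = 0.000788) and Cxcl5 at -0.82 (SE 0.14, adjusted p = 0.00295). Both steps use the KO mice of day 9, so an extreme value there would move them in opposite directions. The count was 9 without KO replicate 2 of day 12. Within WT mice, 0 of the 35 genes passed the moderated F test of limma over days, beside 0.0201% of all genes. With a trended and robust prior the count was also 0. Steady WT signals are not shown by this, as Cxcl10 changed by 1.22 (SE 0.21, limma adjusted p = 0.0888) in WT mice between days 6 and 9 without passing. The genotype by day interaction passed for 13 genes, 37.1% beside 18.5% of all genes.

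Receptors of these ligands were measured for 17 of 18 listed typical receptors, of which 7 were dim in all groups. At day 6, 0 passed with limma and 4 at day 9, 1 up and 3 down, and at day 12, 5 passed, 3 up and 2 down. These shares are near those of all genes, 29.7% at day 9 and 27.3% at day 12. With only genes above the dim line fitted, 2 receptors passed at day 9. Ccr9, the receptor of Ccl25, had signals of 5.98 and 6.81 in KO mice, against 8.03 and 7.90 in WT mice, at day 9 and 6.49 and 7.10 in KO mice, against 7.84 and 7.94 in WT mice, at day 12. It was 2.97-fold lower in KO at day 9 (log2 difference -1.57, SE 0.25, limma adjusted p = 0.000619) and 2.13-fold lower at day 12 (log2 difference -1.09, SE 0.25, limma adjusted p = 0.00604), so ligand and receptor transcripts were both lower. Cxcr6, the receptor of Cxcl16, was lower in KO while its ligand was higher, at -0.56 (SE 0.10, adjusted p = 0.002) at day 9 and -0.51 (SE 0.10, adjusted p = 0.00355) at day 12, with 4 of 6 groups dim. Ccr3, the receptor of Ccl11 and Ccl24, stood at 0.59 (SE 0.15, adjusted p = 0.0108) at day 12. Ccr10, a receptor of Ccl28, stood at -0.04 (SE 0.11, adjusted p = 0.848) and Cxcr3, of Cxcl9 to Cxcl11, at -0.35 (SE 0.12, adjusted p = 0.0504), and neither passed at any day. Xcr1, the Xcl1 receptor of cross-presenting dendritic cells, was lower at day 9 (log2 difference -0.70, SE 0.19, adjusted p = 0.0146), and Ccr1 and Ccr2 were higher at day 12 (0.44 and 0.36), Ccr2 being dim. The day 12 count was 2 if KO replicate 2 or WT replicate 1 of that day was left out and 3 if WT replicate 2 was. Of 5 atypical receptors, which take up chemokines without signalling to migration, Ccrl2 fell at day 9 (log2 difference -0.63, SE 0.11, adjusted p = 0.000931) and 4 did not pass.

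Of 10 measured adhesion and homing molecules of leukocytes, 1 fell at day 9, beside 17.1% of all genes lower, and 5 fell at day 12, beside 13.7%, with 0 rising. Itgae, the integrin chain that holds lymphocytes to epithelial cadherin, stood at -0.70 (SE 0.11, adjusted p = 0.000562) at day 9 and -1.17 (SE 0.11, adjusted p = 1.17e-05) at day 12, and Itgb7, its partner and a part of the gut-homing integrin, at -0.56 (SE 0.12, adjusted p = 0.00483) at day 12. Madcam1, the vascular ligand of that integrin, and Vcam1 passed at no day.

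**Figure D5:**
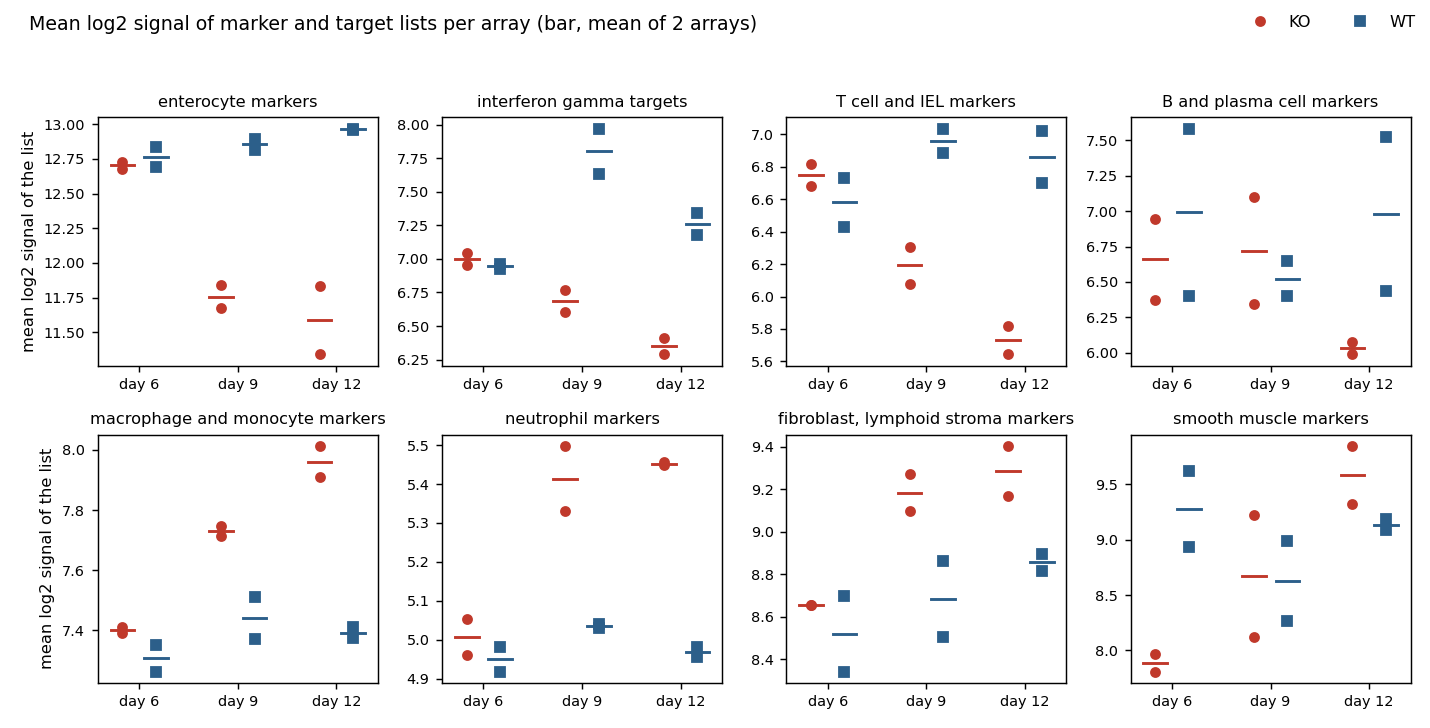
Mean log2 signal (y axis) of 8 gene lists on each array by day, KO (circles) left of WT (squares), with a bar at the mean of 2 mice; y axes differ and do not start at 0. Enterocyte, interferon gamma target and T cell lists have KO under WT at days 9 and 12, and macrophage and neutrophil lists have KO over WT at those days. The B and plasma cell list has 1 high WT mouse at day 6 and at day 12, and 1 high KO mouse at day 9.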

How the data were processed

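Per the labels' protocols, biotin-labelled RNA was hybridised to Affymetrix Mouse Gene 1.0 ST arrays. The values are log2 signals for 35556 probe sets as the authors deposited them. R 3.5 and limma appear in the submitters' processing notes without a role, and how background and normalisation were handled is unknown here. Platform annotation gave 21789 probe sets 1 symbol and 1621 several, and left 12146 unnamed. The probe set with the highest mean represented each of 19938 genes. One mean per group was fitted to all 12 arrays with limma 3.58.1 in R 4.3.3, with variances moderated by eBayes (residual degrees of freedom 6, prior 5.23), and p-values were two-sided and adjusted by the Benjamini-Hochberg method over all genes. The fit was tested on simulated data. The number of arrays limits the precision, with a median SE of 0.14 for a chemokine ligand difference at 1 day, and p-values measure only the spread between these mice. Values on every array are given for ligands called in a genotype comparison or the interaction, and other ligands by range or by the arrays of a day. From other lists, up to 4 called genes with large changes and defining markers are named. The ligands and all lists were chosen with earlier results of these data known. Alternatives were array centring, quantile normalisation, a dim filter, averaged probe sets, a trended robust prior, a replicate block and each array left out. Promoters are from RefSeq, GRCm38.p6, with motifs found in Python 3.11.15.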

Additional observations from a re-analysis of the deposited data

Results flagged for a closer look

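For 13 chemokine ligand genes the KO minus WT difference itself differed between days, by limma's moderated F test of the genotype by day interaction. The values that follow are the difference at day 9 minus that at day 6, on the log2 scale, with the adjusted p of the F test over all genes. Ccl28 shifted by -1.95 (adjusted p = 3.53e-05) and Ccl25 by -1.21 (adjusted p = 2.3e-05), and both differences moved further down by day 12, by -0.95 and -0.66. The dimmer probe set of Ccl25 lacked that further step, with differences of -0.89 at day 9 and -0.64 at day 12. Ccl5 shifted by -1.44 (adjusted p = 0.00149) and Ccl6 by -0.76 (adjusted p = 0.0046), again with a further step down by day 12, of -0.64 and -0.41. Cxcl10 shifted by -1.42 (adjusted p = 0.0170) and Cxcl11 by -1.40 (adjusted p = 0.00777), followed by steps up of 0.60 and 0.40. From day 6 to day 9 Cxcl10 changed by -0.20 in KO mice and by 1.22 in WT mice. Cxcl11 changed by -0.83 in KO mice and by 0.57 in WT mice. Over the same days Ccl5 changed by -0.59 in KO mice and by 0.85 in WT mice, and Ccl6 by -0.30 and 0.45. Cxcl9 shifted by -0.71 (adjusted p = 0.0175) and then by -1.38. Its change from day 6 to day 9 was 0.44 in KO mice and 1.15 in WT mice.

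Ccl17 shifted by 1.84 (adjusted p = 0.000255), Ccl22 by 1.07 (adjusted p = 0.00813) and Ccl24 by 0.85 (adjusted p = 0.0143), and from day 9 to day 12 their differences moved by -0.64, -1.23 and -0.76. Cxcl14 shifted by 0.38 (adjusted p = 0.0347) and then by -0.72. Ccl20 shifted by -0.83 (adjusted p = 0.0430) and then by 2.48, and Cxcl12 by -0.39 (adjusted p = 0.0386) and then by 0.57. With 1 array left out in turn, the interaction held in all 12 fits for Ccl17, Ccl22, Ccl25, Ccl28, Ccl5, Ccl6 and Cxcl11. It was lost for Ccl24 without WT replicate 2 of day 9, for Cxcl9 without KO replicate 2 of day 6 or WT replicate 2 of day 12, and for Cxcl10 without KO or WT replicate 1 of day 6 or WT replicate 1 of day 9. It was lost in 7 fits for Cxcl14 and in 10 each for Ccl20 and Cxcl12.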

How the results depend on the processing

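Of 47 called ligand differences, 31 were called with any 1 array left out, and 0 of 564 such values reversed. Leaving out an array of another day leaves a single-day difference unchanged, so such values could not reverse. With the other settings 11 of 275 values lost the call and 0 reversed. Of these settings, the dim filter, the trended robust prior and the replicate block change the test and not the difference, so no reversal was possible there. The day 6 count of 1 became 0 with quantile normalisation and ranged from 0 to 1 with 1 array left out. Leaving out 1 array gave ranges of 12 to 16 at day 9, 10 to 15 at day 12, 12 to 17 for the average, 6 to 10 for KO day 9 against KO day 6, 9 to 17 for KO day 12 against KO day 9, and 9 to 12 for the interaction, with the lone mouse of a group assumed to vary like the rest. For the lists at day 12 these ranges were 2 to 5 chemokine receptors, 2 to 8 NF-kB targets, 5 to 9 T cell markers and 2 to 5 fibroblast markers, and at day 9 they were 1 to 4 macrophage markers. The macrophage count at day 9 was 6 with quantile normalisation. With only genes above the dim line fitted, counts were 2 receptors and 2 neutrophil markers at day 9 and 1 neutrophil marker at day 12, since fewer genes were tested. The list counts were chosen for repetition after seeing the data.

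Same-numbered mice shared no strong deviation from their group means, with correlations of 0.18, -0.09 and 0.11 at days 6, 9 and 12. Whether the numbers paired mice by litter or batch is not stated, and these values cannot tell. With the replicate number as a block, 1 gene was called at day 6, 15 at day 9, 14 at day 12, 13 on average and 13 in the interaction. The calls lost to it were Pf4 at day 9 (adjusted p = 0.0611), Cxcl3 at day 12 (adjusted p = 0.0569) and, on average, Cxcl3 (adjusted p = 0.0600) and Xcl1 (adjusted p = 0.0553). With 2 mice per group, small differences of dim ligands are not resolved.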

Other observations

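Probe sets that name several Ccl27 copies at once, ligands of Ccr10 like Ccl28, belong to none of the 35 genes. One of them had log2 signals of 6.80 and 6.47 in KO mice, against 7.01 and 7.13 in WT mice, at day 12, with a log2 difference of -0.44 (SE 0.12, limma adjusted p over all probe sets = 0.0324). The other 2, which hold the same values, had 6.51 and 6.49 in KO mice, against 6.83 and 6.90 in WT mice, and a difference of -0.37 that did not pass (limma adjusted p over all probe sets = 0.0778). Within KO mice, the monocyte ligands Ccl12 and Ccl2 were higher at day 9 than at day 6, by 0.41 (SE 0.09, adjusted p = 0.0097) and 0.28 (SE 0.09, adjusted p = 0.0442) with limma, although neither differed from WT past the threshold at any day. Ccl12 was dim in all groups, and its call ended without KO replicate 2 of day 6 in 1 of 12 fits with 1 array left out, that of Ccl2 in 8 of 12.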
